A study of Homo sapiens with 6 samples.

Results

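Tandem 5′ splice sites are pairs of intron starts a few bases apart that compete for the same intron end. The pairs described here lay exactly 4 nt apart, were joined to the same 3′ splice site on the same strand, and carried a canonical motif code (1 to 6) at both junctions. A pair was kept when its sites together had at least 20 uniquely mapped reads in each of the 6 libraries and each site had at least 10 reads over all libraries. This left 261 of the 3300 pairs up to 100 nt apart that met the same read minimums. The 261 pairs held 256 different pairs of sites, since some were joined to more than one acceptor, and they lay on 23 chromosomes, 138 on the plus and 123 on the minus strand. The members were thus chosen by the distance between the sites and by read depth. The minimum of 10 reads was applied to all libraries together, so a pair could meet it through the group in which its lesser site, the one with fewer reads, was the more used. In 57 members the lesser site had 10 reads in 1 group and fewer in the other, 39 through S34F and 18 through WT. These were 14.9% and 6.90% of the members, against 15.6% and 6.33% of all pairs. In 136 members (52.1%, against 54.5% of all pairs) it had 10 reads in each group. The choice was therefore not independent of the difference between genotypes, and the same holds for the 3300 pairs.

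The RNA came from K562, a human chronic myeloid leukaemia cell line, and was poly(A)-selected and sequenced as paired-end reads. The groups were 3 libraries labelled as a U2AF1 wild type knock-in (WT) and 3 libraries labelled U2AF1 S34F, with no further treatment, time or clone given in the labels. S34F is a substitution at residue 34 of U2AF1. The labels do not say whether the libraries of a group came from separate cultures or clones, so the p-values below measure only the spread between these libraries, which may be technical. The libraries held 18074706 to 39279169 unique spliced reads, of which 141280 to 263850 lay at the members. A member had a median of 99.0 to 221 reads per library, depending on the library, and S34F replicate 3 was the deepest. Junction counts cannot show the substitution itself, and genes, untranslated regions, reading frames and the cell line's marker genes were not analysed here, because no annotation of the build of the files, hg19, was used. Pairs are therefore named by position, as the first transcribed base of the intron at each 5′ splice site in hg19 coordinates.

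A 5′ splice site is first read by the U1 small nuclear RNA, which pairs with the last bases of the exon and the first bases of the intron, and is later handed to U6, which contacts the intron side. U2AF1 works at the other end of the intron, where it contacts the AG of the 3′ splice site. The consensus intron start itself holds a second GT 4 bases in, so that a strong site carries the minimal letters of a competitor inside its own U1 pairing stretch. A shift of 4 nt is not a multiple of 3, and where both sites lie in coding sequence it changes the reading frame downstream; transcripts with such a shift are often targets of nonsense-mediated decay. GC sites are a rarer class of 5′ splice site that usually matches U1 well outside the second intron base.

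The motif codes give the letters that the files hold for these sites, with n for a base that was not read here. They are shown because they define the 2 kinds of member. In 235 pairs both sites began with GT, so that the intron side from the upstream site read GTnnGT. In 26 pairs the upstream site began with GC and the downstream site with GT, reading GCnnGT. The opposite order, a GC site 4 nt downstream of a GT site, was present in 0 of the 261 pairs, which allows a share of up to 1.15%. Among the 3039 pairs at the other distances up to 100 nt, the upstream site was GC in 2.01% and the downstream site in 1.78%, compared with 9.96% and 0% at 4 nt. These shares describe the tables and were not tested.

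Pairs 4 nt apart were more numerous than pairs at any other distance up to 100 nt. They made up 7.91% of the 3300 pairs. The next most frequent distance, 9 nt, had 105 pairs, and 6 nt had 91. The neighbouring distances of 3 nt and 5 nt had 58 and 77 pairs. Before the read minimums, 3607 of 70891 pairs were 4 nt apart (5.09%), and this distance was again the most frequent, followed by 49 nt with 1412 pairs. Of the 3607 pairs, 1366 had 20 reads in every library and 417 had 10 reads on each site. At the edges of the rule, the 43 members with 10 to 12 reads on their lesser site had a median upstream share of 97.98%, and the 69 pairs just outside, with 7 to 9 reads, had 98.6%. The 17 members with 20 to 24 reads in their lowest library had a median upstream share of 66.3%, and the 23 pairs just outside, with 15 to 19 reads, had 39.7%.

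**Figure D1:**
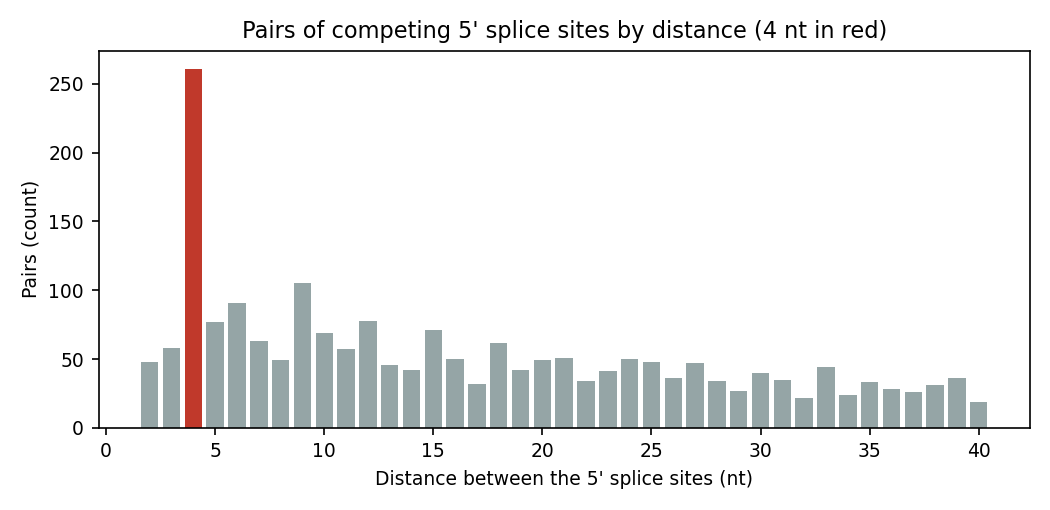
Number of pairs of competing 5′ splice sites that passed the read minimums (vertical axis, count) at each distance between the sites (horizontal axis, nt, shown up to 40). The bar at 4 nt, in red, stands at 261 pairs and the next highest, at 9 nt, at 105.

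The side on which the second site lay was then examined from the leading sites. In all, 26327 annotated junctions with a GT site had at least 1000 pooled reads and were the most-read junction of their acceptor. A second 5′ splice site with at least 10 reads lay 4 nt downstream in 68 of them, 0.258% (95% Wilson interval 0.204% to 0.327%). It lay 4 nt upstream in 33, 0.125% (0.0893% to 0.176%). The other offsets within 12 nt gave at most 25 junctions each. Of 204 leading GC junctions at the same depth, 7 had a second site 4 nt downstream, 3.43% (1.67% to 6.91%). There were 0 with one 4 nt upstream (Wilson upper limit 1.85%). The interval of the GC sites at 4 nt downstream lies above that of the GT sites. The lesser site took little of the reads in these junctions: its median share was 1.17% downstream of a leading GT site, 1.29% upstream of one and 0.498% downstream of a leading GC site. The intervals cover counting error only and take junctions as independent.

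**Figure D2:**
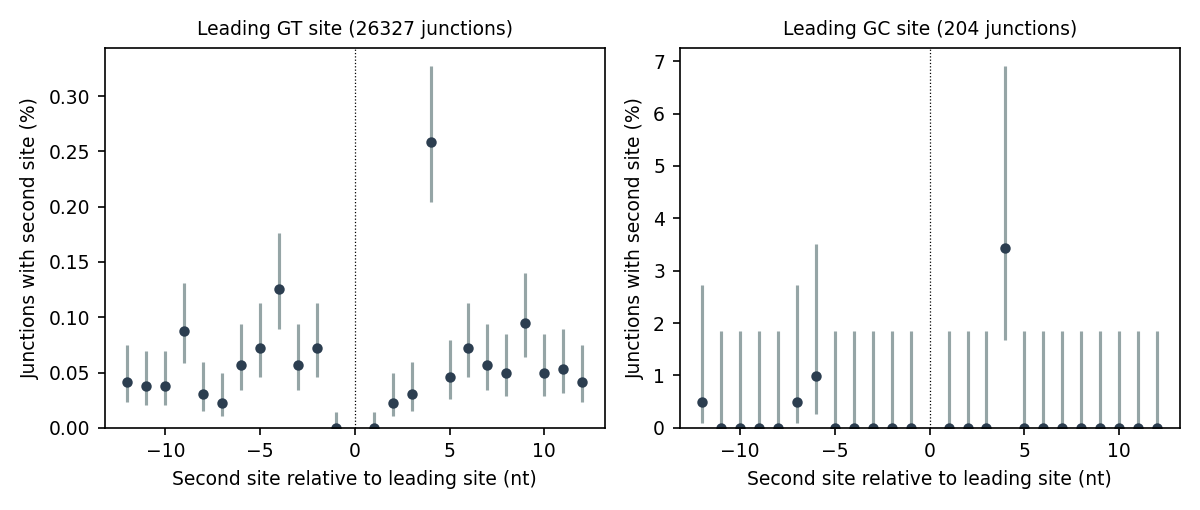
Percent of leading annotated junctions with a second used 5′ splice site (vertical axis) by its offset from the leading site (horizontal axis, nt, downstream positive), for 26327 GT and 204 GC junctions; the vertical scales differ. Points are percentages and bars 95% Wilson intervals, and the highest point in both panels is at 4 nt downstream, 0.258% and 3.43%.

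In most members the upstream site dominated. Its share of the pair's reads, pooled over the libraries, had a median of 92.7% with quartiles of 9.04% and 98.2%, and ranged from 0.0592% to 99.98%. The upstream site led in 174 pairs (66.7%) and the downstream site in 87. Among the pairs at other distances the upstream site led in 45.9%, and their median upstream share was 32.5%. The nearest distances differed from this pool and from each other. At 5 to 9 nt the upstream site led in 51.7% with a median share of 60.1%, and at 2 or 3 nt in 38.7% with 9.99%. Single distances varied, with 61.4% of 57 pairs at 11 nt and 72.2% of 18 pairs at 70 nt. The lead of the upstream site at 4 nt was present at every depth: it led in 66.7% of members with under 500 pooled reads, 64.8% of those with 500 to under 2000 and 70.3% of those with 2000 or more, against 46.9%, 45.2% and 46.1% at other distances. These differences between distances were not tested.

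The lesser site of a member took a median of 2.93% of the reads. It took at least 5% in 94 pairs, at least 10% in 51, at least 20% in 25 and at least 40% in 5, and under 1% in 47. A pair needs 1000 pooled reads before a share under 1% can pass the minimum of 10 reads, so the smallest visible share falls with depth. The median lesser share was 8.95% in the 75 members with under 500 reads, 2.36% in the 122 with 500 to under 2000 and 0.545% in the 64 with 2000 or more. The values at other distances were 9.38%, 3.25% and 0.613%.

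**Figure D3:**
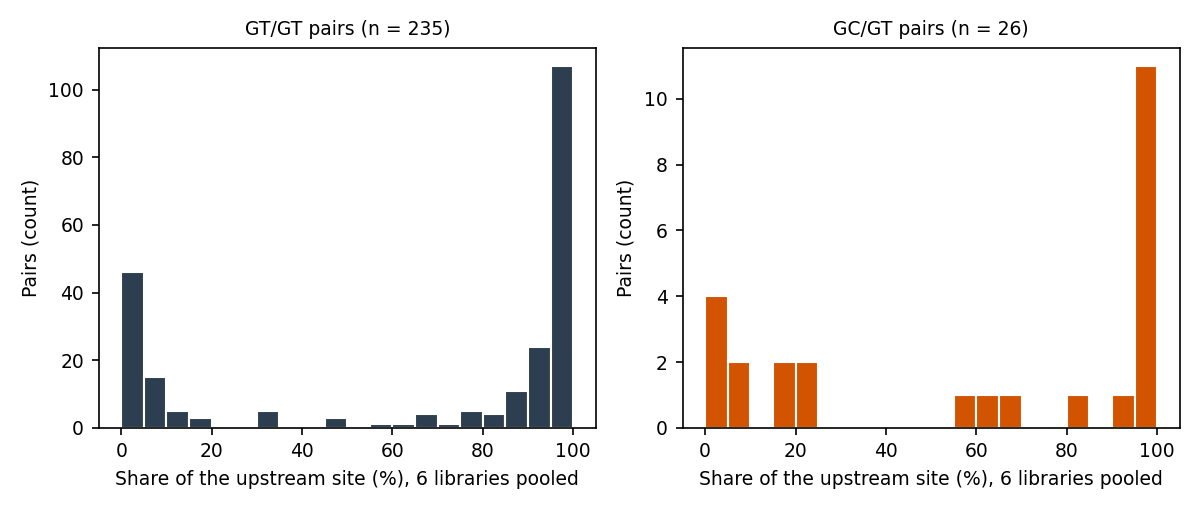
Histograms of the pooled share of the upstream site (horizontal axis, percent in bins of 5) over the 235 GT/GT and 26 GC/GT members (vertical axis, count of pairs). Most GT/GT pairs lie near 0% or 100%, and the GC/GT pairs have a median of 74.6% with 10 pairs led by the downstream GT site.

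Annotation and use went together. Both junctions were annotated in 85 members, the upstream one alone in 120, the downstream one alone in 51 and neither in 5. In 169 of the 171 members with 1 annotated junction, that junction was the leading one. Of the 181 unannotated junctions, 174 began at a site that no annotated junction used, and 257 of the 261 pairs ended at an annotated acceptor. The lesser site had a median share of 8.06% where both were annotated, 2.00% where the upstream one alone was and 2.08% where the downstream one alone was. In the 66 GT/GT pairs with both junctions annotated, the upstream site led in 42 and the downstream site in 24. The share of members with both junctions annotated was 32.6%, compared with 51.1% at other distances. It was 28.3% at 2 or 3 nt and 44.7% at 5 to 9 nt, and these differences were not tested.

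The GC/GT pairs spread over the whole range. The upstream GC site led in 16 of the 26 and the downstream GT site in 10, and the upstream share ran from 1.19% to 99.8% with a median of 74.6%. All 7 pairs in which the GC junction alone was annotated were led by it, at 93.6% to 99.6%. In the 19 with both junctions annotated, the GC site led in 9, and the median upstream share was 23.6%. On the minus strand of chromosome 5, the GC site at 180669173 took 99.8% of 60538 reads against the GT site at 180669169, and its share in the libraries lay between 99.70% and 99.84%. On the plus strand of chromosome 11 the order was turned: the GC site at 763941 had 2.22% of 6759 reads and the GT site at 763945 the rest. The difference between these pairs is far larger than the spread of either between libraries.

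The members with the most even use are the ones in which both products are common. The GT sites at 39492071 and 39492075 on chromosome 1 (plus strand, both junctions annotated) shared 12326 reads almost equally. The upstream share was 48.6%, 49.1% and 50.3% in WT and 48.1%, 53.1% and 49.4% in S34F, so the groups overlapped. The annotated pair at 54960485 and 54960489 on the plus strand of chromosome 19, with 2632 reads, stood at 60.5%, 56.4% and 59.5% in WT and 62.5%, 53.9% and 59.9% in S34F. These deep pairs kept their balance within 5.03 and 8.54 percentage points over all 6 libraries.

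The other pairs of even use rested on fewer reads. At 128248268 and 128248272 on the plus strand of chromosome 7 (509 reads), the downstream junction was unannotated yet took 51.1% of the reads. The upstream share was 46.4%, 43.6% and 41.7% in WT and 47.4%, 57.1% and 56.0% in S34F, without overlap between the groups (log2 odds 0.54, SE 0.37, edgeR adjusted p = 0.78). At 65283659 and 65283663 on the plus strand of chromosome 2 (188 reads) the share was 39.3%, 37.5% and 55.0% in WT and 53.3%, 39.3% and 60.5% in S34F, and the groups overlapped. Among the 6 most even pairs, 2 were GC/GT. The GC site at 1335066 on the plus strand of chromosome 1 (333 reads) had 50%, 62.7% and 55.0% in WT and 59.3%, 66.7% and 64.2% in S34F. The GC site at 55185558 on the minus strand of chromosome X (202 reads) had 58.1%, 46.9% and 60.0% in WT and 58.3%, 44.4% and 64.4% in S34F. Both GC pairs overlapped between the groups.

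The most-read members, in contrast, used the second site rarely. The pair at 45915176 and 45915172 on the minus strand of chromosome 13 had 116712 reads, of which 38 began at the downstream site although both junctions are annotated. Upstream shares at 39924161 on the minus strand of chromosome 19, 34389506 on the minus strand of chromosome 6 and 44216514 on the plus strand of chromosome 6 were 99.97%, 99.98% and 99.97% of 72361, 65968 and 50051 reads. At 130213563 and 130213559 on the minus strand of chromosome 9 the unannotated upstream site had 54 of 63158 reads. Its share was 0.0807%, 0.155% and 0.109% in WT and 0.0754%, 0.0484% and 0.0696% in S34F, without overlap (log2 odds -0.81, SE 0.44, edgeR adjusted p = 0.69), and the log2 odds were -0.52 without WT replicate 2. Shares this small moved several fold between libraries: the downstream site at 44216518 had between 0.0109% and 0.0928%, on 1 to 6 reads per library.

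Some exons offered 3 sites in steps of 4 nt to 1 acceptor, so that 2 members share their middle site and its reads. There were 2 such runs. On the plus strand of chromosome 14 the sites at 23299150, 23299154 and 23299158, joined to 23299258, had 2366, 49 and 332 reads, and the outer junctions were the annotated ones. On the plus strand of chromosome 9 the sites at 37120621, 37120625 and 37120629, joined to 37126308, had 679, 178 and 14 reads, and the first junction alone was annotated. The middle site was thus the least used in the first run and the second most used in the other.

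The spread between libraries depended on how even a pair was. In 254 members the upstream share was above 50% in all 6 libraries or in none. The other 7 had pooled upstream shares from 48.9% to 67.9%. They include the pair at 1335066 on chromosome 1, which was even, at 50%, in WT replicate 1 and above 50% in every other library. The range over the libraries was below 10 percentage points in 206 members, at least 20 in 10, and had a median of 3.98 points. The within-group SD of the share had a median of 1.54 points, against 1.48 points from read counting alone. In the 94 members whose lesser site took at least 5%, the medians were 3.69 and 3.73 points. Where the lesser share is small, a narrow range in points follows from the share itself. The within-group SD was at least 2 times the counting value in 5 members. The widest range, 46.8 points, was at 128288096 and 128288100 on the plus strand of chromosome 7, a pair with neither junction annotated and 24 to 75 reads per library. Its upstream share was 69.3%, 87.5% and 40.7% in WT and 58.6%, 62.5% and 51.2% in S34F. WT replicate 2 was the highest and WT replicate 3 the lowest, with S34F between them.

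The comparison of the groups asks whether a mutant of the 3′ splice site factor changed the choice between the tandem 5′ splice sites. No change was called. A pair was to be called at an edgeR adjusted p under 0.05, over all 3300 pairs, with group means at least 10 percentage points apart. By this rule 0 of 261 members were called, as were 0% of all pairs; DESeq2 and limma on log2 odds also called 0 members. The lowest adjusted p of a member was 0.25, at a pair that met the read minimum through S34F alone. It was 0.38 among the 136 members with 10 reads on the lesser site in each group. At an unadjusted p under 0.05 edgeR had 20 members, 7.66%, against 7.85% of all pairs. DESeq2 had 7 of 261 members and 80 of 3300 pairs, and limma 17 members and 227 pairs. The edgeR count was 11 of 204 members without S34F replicate 3, against 165 of 2675 pairs. The upstream share was higher in S34F in 13 of the 20, 4.98% of the members against 4.48% of all pairs. It was lower in 7, 2.68% of the members against 3.36% of all pairs. Groups did not overlap in 34 members, 13%, against 12.8% of all pairs. S34F was above WT in 22 of them, 8.43% of the members against 7.06% of all pairs. It was below WT in 12, 4.6% of the members against 5.70% of all pairs. The members' shares thus lay near those of all pairs, which met the same minimums. Of the 20, 9 were among the 57 members whose lesser site reached 10 reads in 1 group alone. They were 15.8% of those members, against 17.6% of all pairs of that kind. By the rule such pairs differed between the groups in that read count, though not necessarily in share. Among the 136 members that reached it in each group, 10 (7.35%) had an unadjusted p under 0.05, against 6.17% of all pairs of that kind.

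The sizes were small for most members. The median difference of the upstream share, S34F minus WT, was 0.0957 percentage points, and the median absolute difference was 0.879 points, compared with 0.985 over all pairs. The group means differed by less than 1 point in 140 members, by at least 5 in 31 and by at least 10 in 2 (0.766%, against 1.91% of all pairs). The fitted change had a median of 0.11 in log2 odds, against 0.07 over all pairs. Its standard error had a median of 0.67, and changes of that size or larger in a single pair were not called at this depth. At 37120621 on chromosome 9, log2 odds of 1.08 (SE 0.37) had an edgeR adjusted p of 0.38.

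**Figure D4:**
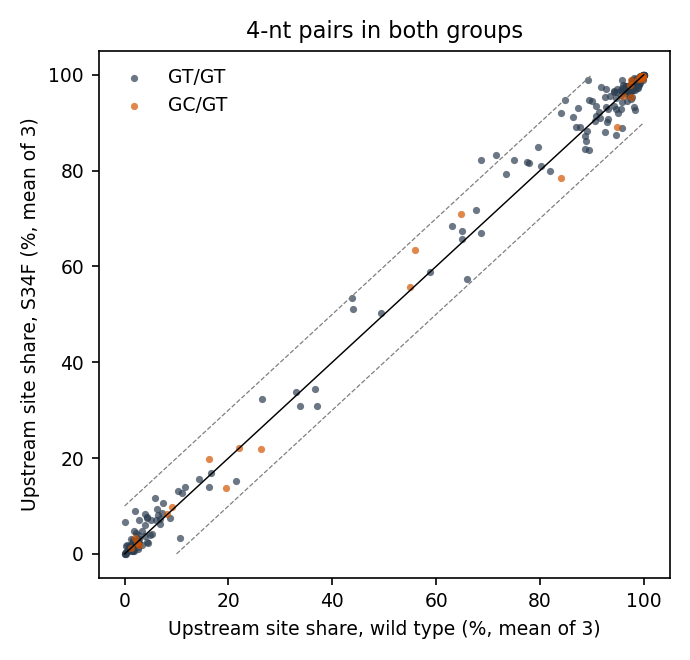
Mean upstream share over 3 S34F libraries (vertical axis, percent) against the mean over 3 WT libraries (horizontal axis, percent) for each of the 261 members, GT/GT in dark blue and GC/GT in orange. The solid line marks equal shares and the dashed lines differences of 10 percentage points, which 2 members exceed.

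The 2 members beyond 10 points are both on plus strands, and leaving out 1 library took either below that size. At 65959009 and 65959013 on chromosome 7, with both junctions annotated and 263 reads, the upstream share was 75.4%, 71.1% and 59.5% in WT and 88.9%, 76.7% and 81.4% in S34F. The lowest S34F library lay above the highest WT library by less than the step that 1 read makes in that S34F library, which had 30 reads at this pair. Means were 68.7% ± 8.2 and 82.3% ± 6.2 (SD over 3 libraries), with log2 odds of 0.97 (SE 0.52, edgeR adjusted p = 0.67). Without WT replicate 3 the difference was 9.06 points in place of 13.7. At 37120621 and 37120625 on chromosome 9, the first step of the run above, it was 70.8%, 75.7% and 68.2% in WT and 87.5%, 75.3% and 87.0% in S34F. S34F replicate 2 lay within the WT range there, and the means were 71.6% ± 3.8 and 83.2% ± 6.9 (log2 odds 1.08, SE 0.37, edgeR adjusted p = 0.38). The difference of 11.7 points was 9.98 without WT replicate 3, 9.54 without S34F replicate 1 and 9.81 without S34F replicate 3. The second step of that run, at 37120625 and 37120629, had 89.7%, 83.3% and 94.6% in WT and 100%, 100% and 96.8% in S34F, with 20 to 42 reads per library. Its last site had 13 reads in WT and 1 in S34F and met the read minimum through WT alone, so its difference is given as a description, with no test. Both steps share the reads of the middle site and are not independent.

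The pairs with the smallest p-values included 3 whose rare site met the read minimum through S34F alone. Their values are a description, with no test. At 7227430 and 7227426 on the minus strand of chromosome 17, an intron of 99 nt from the upstream site, the unannotated upstream site had 0 of 100 reads in WT, which allows a share of up to 3%. In S34F it had 11 of 126 reads, 8.73%, and the pair passed the minimum through those reads. The S34F libraries stood at 0%, 7.41% and 12.5%, so S34F replicate 1 was at the WT value. At 95243110 and 95243106 on the minus strand of chromosome 13 the unannotated upstream site went from 0%, 3.51% and 2.33% in WT to 14.5%, 4.44% and 8% in S34F, on 6 reads in WT and 16 in S34F.

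The deepest of the pairs named by p is at 41757071 and 41757075 on the plus strand of chromosome 6, with 19599 reads. Its unannotated upstream site had 1.55%, 1.79% and 1.46% in WT and 3.11%, 2.00% and 2.69% in S34F, without overlap. Means were 1.60% ± 0.17 and 2.60% ± 0.56 (log2 odds 0.70, SE 0.25, edgeR adjusted p = 0.41). At 18139895 and 18139891 on the minus strand of the same chromosome the upstream share was 100%, 100% and 99.6% in WT and 98.8%, 99.5% and 98.1% in S34F. The unannotated downstream site, the third of the rare sites above, had 1 read in WT and 13 in S34F among 1906 reads of the pair. At 5616142 and 5616138 on the minus strand of chromosome 19, with both junctions annotated, it was 92.2%, 89.9% and 72.1% in WT and 91.9%, 98.3% and 93.9% in S34F. WT replicate 3 stood apart from the other libraries, and the groups overlapped (log2 odds 1.41, SE 0.51, edgeR adjusted p = 0.41). Without WT replicate 3 the log2 odds were 0.64 and the difference was 3.63 points in place of 9.95 (edgeR adjusted p = 0.92).

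**Figure D5:**
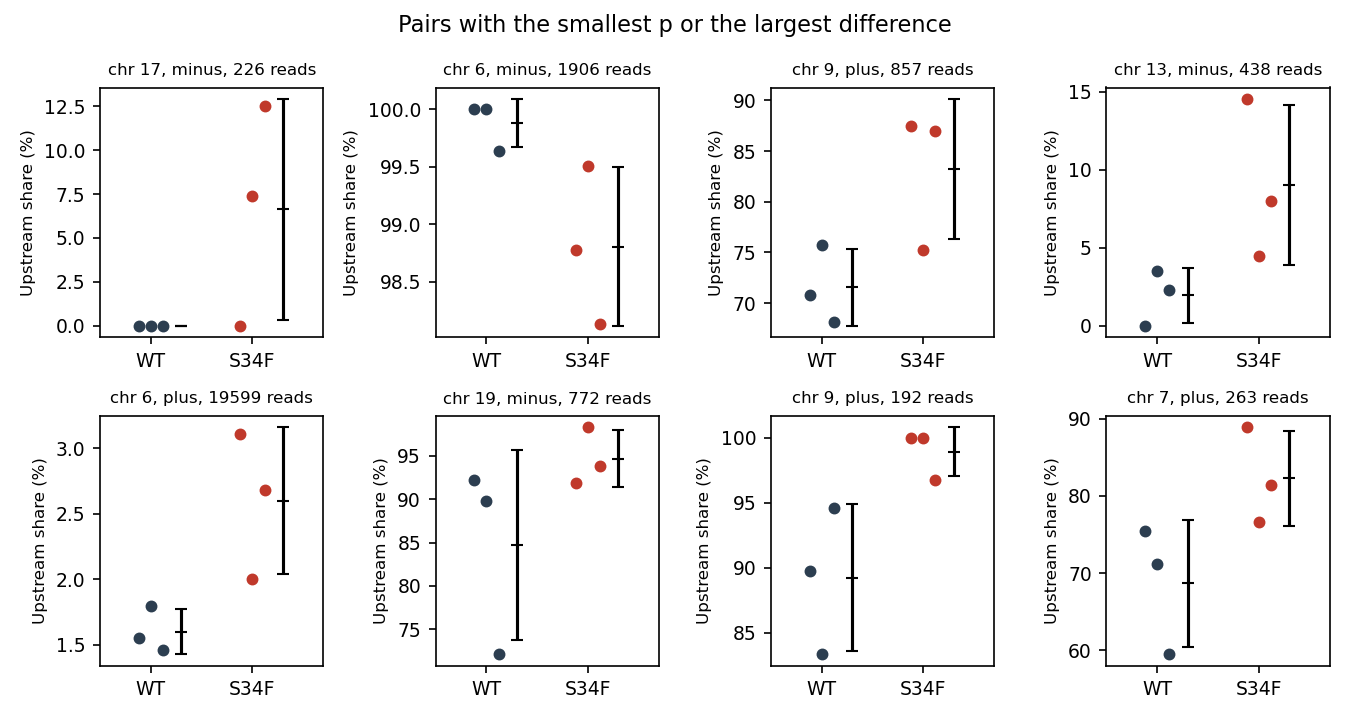
Upstream share in each library (vertical axes, percent, each panel with its own scale that does not start at 0) for the 8 pairs named by smallest p or largest difference, ordered by p, with WT in dark blue and S34F in red. Points are libraries, and the bar beside them is the mean ± SD (n = 3); titles give chromosome, strand and pooled reads, and in 3 of the 8 panels a S34F library lies within or at the edge of the WT range.

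The GC/GT members gave 1 unadjusted edgeR p under 0.05 among 26, 3.85%, against 7.85% of all pairs. It was the chromosome 11 pair at 763941 and 763945, whose GC site had 2.63%, 2.88% and 3.02% in WT and 1.32%, 2.33% and 1.75% in S34F. All S34F libraries were below all WT libraries (log2 odds -0.69, SE 0.32, edgeR adjusted p = 0.57), as they were in 5.70% of all pairs. Over the class the median difference was 0.0629 points, with 14 fitted changes upward and 12 downward.

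Unannotated sites can take a large part of a pair. Besides the chromosome 7 pair above, an unannotated junction led at 171560340 and 171560344 on the plus strand of chromosome 1, where the annotated upstream site had 4.67% of 1091 reads, between 1.19% and 5.86% in the libraries. The pairs at 674213 and 674209 on the minus strand of chromosome 1 and at 128289037 and 128289041 on the plus strand of chromosome 7 had neither junction annotated and upstream shares of 97.3% and 98.4%. Multi-mapped reads, which were not counted in the shares, made up 57.7% and 19.8% of the reads at those pairs, respectively. With them added, the log2 odds of S34F against WT went from 0.83 to 0.71 at the first pair and from 0.10 to 0.53 at the second (edgeR adjusted p = 0.82 and 0.94). Over the members the median multi-mapped share was 1.24%, and 17 were at 10% or more. Per library, multi-mapped reads took 2.80% to 3.04% at the members in WT and 3.02% to 3.18% in S34F, which overlap.

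The largest overhang of a read on the lesser site was at least 20 nt in 259 members, with a median of 49 nt. The GC site at 10745746 on the plus strand of chromosome 19, credited with 8.07% of 533 reads, had a largest overhang of 1 nt. The downstream site at 153626740 on the plus strand of chromosome X had one of 10 nt. Both junctions are annotated, and the use of these 2 sites rests on short alignments.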

How the data were processed

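Each library's deposited table held raw read counts per junction in 9 columns without a header, laid out as STAR writes its junction files. STAR and hg19 are named, without versions or roles, in the submitters' processing notes; the annotation and junction filters are not given in the sources used here. Uniquely mapped counts were used; multi-mapped counts and the largest overhang (in nt, other values the authors deposited) entered alternatives. The members and lists were chosen with earlier results of these data known.

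A junction missing from a table counted as 0. Pairs up to 100 nt apart were fitted together with edgeR 4.0.16 (R 4.3.3; quasi-likelihood F-test, robust, legacy mode): 2 counts per library and pair, with library intercepts, a term for the site and its interaction with S34F, which was tested as a change in log2 odds. The standard error is the absolute coefficient over the square root of F. P-values were adjusted (Benjamini-Hochberg) over all 3300 pairs. Alternatives used DESeq2 1.42.0 and limma 3.58.1 (0.5 added to both counts). The fit was also run on simulated data. The changes set there were larger than most fitted here, and no conclusion is drawn from that run. The other software was scipy 1.17.1, matplotlib 3.10.9, numpy 2.4.6 and pandas 2.3.3 under Python 3.11.15.

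Named pairs, 1 acceptor per pair of sites, were those called, the 6 with the smallest p, the 6 with the most reads, the 6 most even, the 4 with the largest difference and the 4 with the highest unannotated share; other pairs named were chosen after their values were seen. Replicates of a group differed by more than counting noise (chi-square per degree of freedom from 5.4 to 18.02 over junctions with 50 or more reads), so none was a repeated library. Reads carry no molecular identifiers, so intervals and limits for counts of 0 (3 counts) cover counting error only.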

Additional observations from a re-analysis of the deposited data

How the results depend on the processing

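No member was called under any alternative run. The lowest adjusted p of a named pair was 0.12 (edgeR, pairs up to 500 nt apart), at 7227430 on chromosome 17. That pair met the read minimum through S34F alone, so the value is a description, with no test. Among named pairs that met it in each group the lowest was also 0.12 (edgeR, without WT replicate 1), at 5616142 on chromosome 19. The newer edgeR dispersion was chosen after seeing the data. Members with an unadjusted p under 0.05, 20 in the reported fit, numbered 7 with DESeq2 and 44 of 3270 with no low-count filter. Over all pairs, 259 in the reported fit, the counts were 80 of 3300 and 519 of 39861, respectively. With a library left out, members ranged from 11 of 204 (without S34F replicate 3) to 25 of 237 (without WT replicate 1). The counts over all pairs in those runs were 165 of 2675 and 284 of 2978. Calls among all pairs, 0 as reported, were 1 with at least 50 reads, 1 when reads were summed over acceptors, 47 of 8760 up to 500 nt apart, and 0 to 6 with a library left out (6 without WT replicate 1). The deviations of same-numbered WT and S34F libraries had correlations of -0.041 to -0.021. No pairing by number was seen, which does not show whether such libraries were handled together. The replicate block gave 18 members with an unadjusted p under 0.05, against 212 of all 3300 pairs, and 0 calls.

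Of 367 values of the 23 named pairs under alternatives, 20 turned direction, in 8 pairs that were close to no change. The log2 odds of the pair at 45915176 (chromosome 13) turned to 0.013 with DESeq2, 0.037 with limma and 0.063 with the replicate block; leaving out a library gave -0.42 to 0.48. The pair at 54960485 (chromosome 19) turned to -0.0036 with limma, -0.00057 with the replicate block and -0.0024 summed over acceptors, and ranged from -0.086 to 0.13. The pair at 180669173 (chromosome 5) turned to -0.101 summed over acceptors and ranged from -0.097 to 0.37. With a library left out, 171560340 ranged from -0.496 to 0.17, 39492071 from -0.035 to 0.11, 34389506 from -0.14 to 0.71, 55185558 from -0.23 to 0.46, and 128289037 had -0.21. The cause was not tested. Leaving out a library moved the log2 odds by over 1.5 times, or turned them, in 17 of the 23 named pairs. The depth of a rare site limits what can be compared: in 125 members it had fewer than 10 reads in at least 1 group.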

Other observations

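Some pairs of 5′ splice sites were also joined to further acceptors, which gives a second reading of their choice. In all, 47 of the 256 pairs of sites had 58 further acceptors with at least 20 pooled reads. The median absolute difference of the upstream share between acceptors was 4.07 percentage points, the leading site was the same in 52 of the 58 comparisons, and the share at the main acceptor lay inside the 95% Clopper-Pearson interval of the further one in 40. In 9 comparisons at 8 pairs of sites the shares differed by at least 20 points, a limit chosen after the values were seen. Counts below are pooled over the libraries, and these differences were not tested.

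At 22352133 and 22352137 on the plus strand of chromosome 1, the upstream site had 16.8% of 274 reads to the acceptor at 22356772. To the acceptor 3 nt further downstream, at 22356775, it had 63.0% of 54 reads (95% interval 48.7% to 75.7%), and to 22353906 it had 59.3% of 27 (38.8% to 77.6%). WT and S34F gave 16.2% and 17.5% at the first acceptor and 62.1% and 64% at the second, so the gap was present in both groups. At 23299154 and 23299158 on chromosome 14 the upstream site had 12.9% of 381 reads to 23299258 and 60.6% of 94 (50.02% to 70.6%) to the acceptor 3 nt downstream, with 68.2% in WT and 54% in S34F. At 139887153 and 139887157 on the plus strand of chromosome 9 the upstream share was 70.5% of 396 reads to 139887376 and 30.5% of 82 reads (20.8% to 41.6%) to 139887504. The largest gap was at 76209732 and 76209736 on the plus strand of chromosome 15, where the upstream site had 0.858% of 1165 reads to 76222224 and 92% of 25 reads (73.97% to 99.02%) to 76225025. Of those 25 reads, 22 came from S34F libraries, with 12 upstream and 1 downstream read in S34F replicate 3, the deepest library. WT had 3 reads there, too few to compare the groups. At 54826854 and 54826850 on the minus strand of chromosome 7, with 8.08% of 2921 reads and 50% of 20 reads (27.2% to 72.8%), the further acceptor also lay 4 nt downstream, so that 2 of the 4 junctions there have introns of the same length.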
